A study of Drosophila melanogaster with 76 samples.

Results

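The genes described here are the 6 small heat shock genes Hsp67Bc, Hsp22, Hsp26, Hsp67Ba, Hsp23 and Hsp27, and Hsp83. These 7 of the 14238 gene records used were chosen by name, under a rule that uses no measured value, and each was taken with 5 kb either side. The data are ChIP-seq peak lists from Drosophila melanogaster, each giving the positions of called peaks on build dm6 with no height, read count or p-value. Mutant embryos, with Mutant and IntS11 mislocalized in their titles, were set against WT embryos at 1–1.5 h and 2.5–3 h, with antibodies to Zelda, GAF, RNA polymerase II (Pol II) and its form phosphorylated on serine 5 (pSer5). The WT samples of these 4 antibodies also carry IntS11 mislocalized in their titles, so genotype was read from the words Mutant and WT. ZygoticMutant larvae labelled 48AEL were set against WT larvae for Pol II, and IntS11 itself was mapped in WT embryos at both stages. Each of the 20 groups had 2 lists, 40 in all. The other 36 of the 76 samples were not analysed here. No allele, strain or driver is named in the labels for these groups, so what the mutation does to the protein is known only by the word mislocalized. The embryos and larvae are whole, so a peak averages over all cells collected.

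Small heat shock proteins are chaperones that hold unfolded proteins and keep them from aggregating. Hsp22 works in mitochondria, Hsp23 and Hsp26 in the cytosol, Hsp27 in the nucleus, and Hsp67Bc acts with the co-chaperone Starvin in the removal of damaged proteins. Hsp83 is the fly's cytosolic Hsp90, which folds kinases and receptors and is made without stress. Heat shock genes are textbook cases of a polymerase that pauses just after starting. GAF, a factor that binds GA repeats, keeps their promoters open before any stress. Zelda opens chromatin at the onset of zygotic transcription, pSer5 marks polymerase in early elongation, and IntS11 cleaves RNA as part of the Integrator complex, which ends short Pol II transcripts.

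The 6 small heat shock genes lie in a cluster of 14184 bp on chromosome 3L, from 9371511 to 9385694, which also holds CG4456 and CG4461. In order, the records are Hsp67Bc (9371511 to 9372497), Hsp22 (9372931 to 9374964), Hsp26 (9376418 to 9377427), Hsp67Ba (9377802 to 9379534), Hsp23 (9381882 to 9382765) and Hsp27 (9384063 to 9385694). The Hsp22 record lies wholly within that of CG4456, so their peaks cannot be told apart. The 5 kb windows of these 6 genes overlap one another, so 1 peak often counts for several of them and they are not independent. Hsp83 stands alone on 3L from 3192969 to 3197059, with CG14965 before it and CG14966 overlapping its end. The gene table gives no strand or exons, so the start of a record below is its lower coordinate, not its promoter. The lists held 1276 to 12202 peaks each, and the shortest peak of a list measured 208 to 328 bp, so the peak caller's limits differed between lists. For pSer5 the shortest measured 208 to 228 bp in mutant lists and 313 to 328 bp in WT lists. For Pol II in embryos they measured 210 to 248 bp and 273 to 280 bp. For these antibodies the limit thus went with genotype, and some short mutant peaks were below the shortest listed in WT. Sequencing depth is unknown. Of 12 early zygotic genes, 8 had a Pol II peak in both mutant lists at 1–1.5 h, against 10 in WT, and 1 in the mutant at 2.5–3 h, against 8 in WT. In larvae, 2 of these 12 and 2 of 12 larval gut and cuticle genes had one in either genotype.

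Zelda and GAF lay at several places of the cluster in WT embryos and had no peak in it in mutant embryos at 1–1.5 h. A gene counted as bound when both lists of a group had a peak within 500 bp of the start or end of its record. It counted as lost when both WT lists and neither mutant list had one, and as kept when all 4 had one. Zelda was lost at 6 of the 6 members bound in WT at 1–1.5 h, where 95.7% of all bound genes lost it, and GAF at 7 of 7, where 87.9% did. In neither mutant GAF list at that stage did any peak fall within 5 kb of a member. The only mutant Zelda peak at that stage lay over CG4452, outside the cluster, and measured 562 and 571 bp in the 2 lists. The WT GAF peaks at that stage lay from before the Hsp22 record into it (9372408 to 9374243 and 9372698 to 9374260, the first reaching back into Hsp67Bc), across the gap between Hsp26 and Hsp67Ba, before Hsp23 and between Hsp23 and Hsp27. WT Zelda shared 3123 bp with WT GAF over the cluster, of 3820 bp held by both Zelda lists and 4476 bp held by both GAF lists. At Hsp26 they parted, with 692 bp of GAF and 0 bp of Zelda held by both lists within 500 bp of the record.

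**Figure D1:**
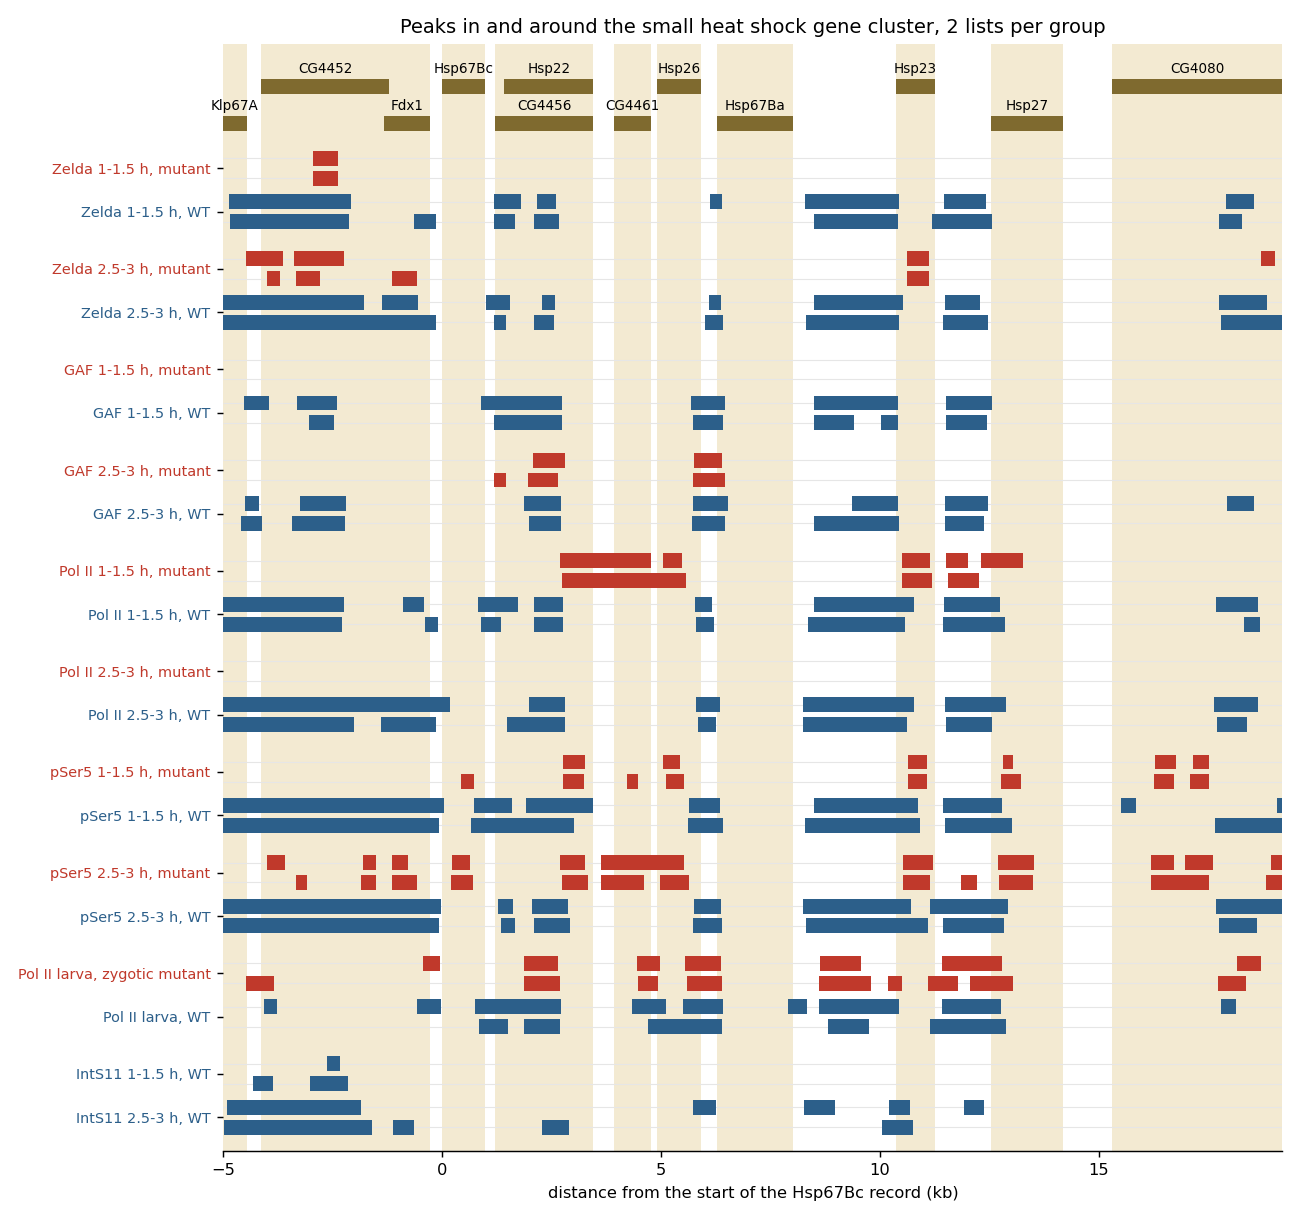
Peaks of each list (bars) against distance from the start of the Hsp67Bc record in kb, with the mutant lists in red above the WT lists in blue for each antibody and stage, and gene records as brown boxes with pale shading. Most mutant Pol II and pSer5 peaks sit mainly in the shaded records, with some between Hsp23 and Hsp27, where most of the WT peaks sit between records, and mutant GAF at 2.5–3 h sits at 2 of the WT places.

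By 2.5–3 h a part of GAF, and 1 peak of Zelda, were present in the mutant cluster. GAF was lost at 3 of the 5 members bound in WT (Hsp23, Hsp27 and Hsp83), with 66.7% lost over all bound genes, and kept at 2 (Hsp26 and Hsp67Ba), with 26.8% kept over all. Both kept genes share 1 peak, which lay at 9377266 to 9377898 and 9377249 to 9377972 in the mutant lists and at 9377242 to 9378044 and 9377219 to 9377964 in the WT lists. All 633 bp held by both mutant lists at Hsp26 were also held by both WT lists, which held 686 bp. Only 1.86% of all genes with such bases in both genotypes had none in common. A second mutant GAF peak lay inside Hsp22, at 9373585 to 9374313 and 9373484 to 9374167, where WT also had one. Mutant replicate 2 had a further peak, at 9372691 to 9372966 across the start of that record, which was in neither mutant replicate 1 nor the WT lists of that stage. With a peak near an end in 1 of 2 lists of each genotype, Hsp22 was called neither lost nor kept. Over the whole cluster, all 1216 bp of GAF held by both mutant lists were among the 3378 bp held by both WT lists. The GAF held by both mutant lists thus lay at WT places, at the Hsp22 and Hsp26 end of the cluster, while the WT peaks on either side of Hsp23 had no mutant counterpart.

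Zelda at 2.5–3 h was lost at 6 of 7 bound members, with 83.2% lost over all bound genes, and counted as kept at Hsp23, with 9.98% kept over all. Counted over the whole gene and 5 kb either side, which takes in peaks of neighbouring genes, 1 member lost it and 6 kept it. The peak at Hsp23 was not at the WT place. In the mutant it lay inside the record, at 9382122 to 9382629 in replicate 1 and 9382143 to 9382644 in replicate 2, and covered 57.5% and 56.8% of the record. In WT, Zelda lay before and after the record and covered 18.7% and 7.01% of it. The 487 bp held by both mutant lists and the 831 bp held by both WT lists near Hsp23 had 0 bp in common. Of all genes with such bases in both genotypes, 11.0% had none in common. All 487 bp were also held by both mutant pSer5 lists of the same stage.

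Taken over both factors and both stages, all 7 members had less of their surroundings under Zelda and GAF peaks in the mutant. Hsp83 had 0 bp in each of the 8 mutant lists, against 2777 to 4145 bp of Zelda and 843 to 1769 bp of GAF in the WT lists. Hsp67Ba had 0 and 0 bp of Zelda in mutant embryos at 1–1.5 h, against 4323 and 4238 bp in WT. Its Zelda at 2.5–3 h covered 508 and 502 bp in the mutant, against 3702 and 4203 bp in WT. The differences, averaged over 4 strata of antibody and stage, ran from −3760.25 bp at Hsp67Ba to −2362.5 bp at Hsp83. Each gave an adjusted p of 0.00422 (two-sided exact permutation of genotype within strata, 8 lists each, Benjamini-Hochberg over all genes). In 4 of 4 strata both mutant lists lay below both WT lists at each of the 7. Of all genes 57.6% were lower at that threshold and 1.2% higher, and 5210 genes shared the smallest p the design allows, 0.00154. The median difference was −2938 bp over the 7 members and −642 bp over all genes. The labels do not say whether duplicates stem from separate embryo collections, so these p-values measure the spread between lists, which may be technical.

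At 1–1.5 h Pol II was present in the mutant cluster, where Zelda and GAF were not. It was lost at 3 of 7 bound members (Hsp67Bc, Hsp67Ba and Hsp83), with 83.0% lost over all bound genes, and counted as kept at 4 (Hsp22, Hsp26, Hsp23 and Hsp27), with 12.0% kept over all. With the wider 5 kb window 1 member lost it, and with only peaks of at least 500 bp 2 counted as kept. Most of the bases under mutant peaks were not those under WT peaks, with 537 bp of the cluster in common between the 3533 bp held by both mutant lists and the 4828 bp held by both WT lists. In the mutant, 1 stretch reached from inside Hsp22 across CG4461 into Hsp26, at 9374209 to 9376274 with a further peak at 9376553 to 9376981 in replicate 1, and as a single peak at 9374261 to 9377082 in replicate 2. In WT this stretch held no Pol II peak apart from the edge of the one inside Hsp22. Within 500 bp of Hsp26, the 786 bp held by both mutant lists and the 365 bp held by both WT lists had 0 bp in common, and at Hsp22 the overlap was 16 bp, of 1204 bp in the mutant and 1075 bp in WT. Near Hsp23 252 bp were in common, of 821 bp in the mutant and 1001 bp in WT. A part lay between Hsp23 and Hsp27, where mutant peaks at 9383029 to 9383534 and 9383080 to 9383770 lay within WT peaks. The rest lay inside the Hsp23 record, where mutant peaks starting at 9382020 and 9382017 met WT peaks ending at 9382292 and 9382085. Of all genes with such bases in both genotypes, 19.1% had none in common.

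Hsp23 and Hsp26 had more of their own record under Pol II peaks in the mutant at 1–1.5 h. Pol II covered 71.8% and 76.8% of the Hsp23 record in the mutant lists, against 46.5% and 23.1% in the WT lists. It covered 42.5% and 65.8% of the Hsp26 record in the mutant lists, against 14.0% and 11.8% in the WT lists. In both genes the mutant lists lay above the WT lists, although with 2 lists against 2 the smallest exact p is 0.333, so no test was made. How many of all genes had both mutant lists above both WT lists was not computed. Hsp22 had 37.2% and 34.6% in the mutant and 48.0% and 32.3% in WT, which overlap. Hsp27 had 44.2% and 0% in the mutant and 12.2% and 18.4% in WT, and the mutant lists disagreed. The Hsp67Bc record went the other way, with 0% and 0% in the mutant lists, against 16.5% and 8.92% in the WT lists. The long Hsp67Ba record had 0% in all 4 lists.

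By 2.5–3 h no Pol II peak was left within 5 kb of any of the 7 members in either mutant list. Pol II was lost at 6 of the 6 bound members, with 96.0% lost over all bound genes. WT lists held 3838 to 6445 bp of Pol II around each member at that stage. Most of the bases under WT peaks were the same at both stages, with 4095 bp of the cluster in common between the 5017 bp held by both lists at 2.5–3 h and the 4828 bp held by both at 1–1.5 h. The exception was Hsp67Bc, where the 355 bp held at 2.5–3 h and the 439 bp held at 1–1.5 h had 0 bp in common.

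The pSer5 form was present in the mutant cluster at both stages, mostly inside the gene records. At 1–1.5 h, 1 member lost it (Hsp67Ba), with 77.1% lost over all bound genes, and 5 counted as kept, with 12.0% kept over all. These counts rest on short peaks. With only peaks of at least 500 bp 6 members lost it and 1 kept it, and with 250 bp call windows 3 lost it and 3 kept it. At 2.5–3 h, 1 lost it (Hsp67Ba again), with 65.5% lost over all, and 6 counted as kept, with 21.9% kept over all. At 1–1.5 h, 4 of 4 and 6 of 6 pSer5 peaks within 500 bp of a record of the cluster had their midpoint inside a record in the mutant lists, against 1 of 6 and 1 of 5 in the WT lists. At 2.5–3 h it was 5 of 5 and 6 of 7 in the mutant lists, against 2 of 6 and 2 of 6 in the WT lists. The bases under mutant pSer5 peaks at 1–1.5 h overlapped mutant Pol II peaks of that stage by 1200 of 1429 bp. They had 0 bp in common with the 4828 bp under WT Pol II peaks.

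Measured as bases, 100% and 100% of the cluster under mutant pSer5 peaks at 1–1.5 h lay inside gene records, against 44.5% and 45.9% in WT. Later, at 2.5–3 h, it was 90.7% and 85.6% in the mutant, against 34.6% and 38.0% in WT. For Pol II at 1–1.5 h it was 73.5% and 69.5% in the mutant, against 37.4% and 27.5% in WT. Records make up 61.6% of the cluster with 500 bp either side, so mutant peaks lay above that share and WT peaks below it. The pattern was not confined to heat shock genes. Around the 6623 protein-coding records of the genome no longer than Hsp22, 80.1% of the mutant pSer5 peaks at 1–1.5 h had their midpoint in a record, against 37.7% of the WT peaks. The shares were 73.3% in the mutant and 39.9% in WT at 2.5–3 h, and 57.0% in the mutant and 32.1% in WT for Pol II at 1–1.5 h. Mutant pSer5 peaks near the cluster's records were also shorter, with a median of 417.5 and 422.5 bp in the mutant lists, against 1445 and 2341 bp in the WT lists, at 1–1.5 h. For Pol II at 1–1.5 h the lengths overlapped, with 635 and 691 bp in the mutant and 786 and 548 bp in WT. The part of peak length in the pSer5 shares was not tested.

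**Figure D2:**
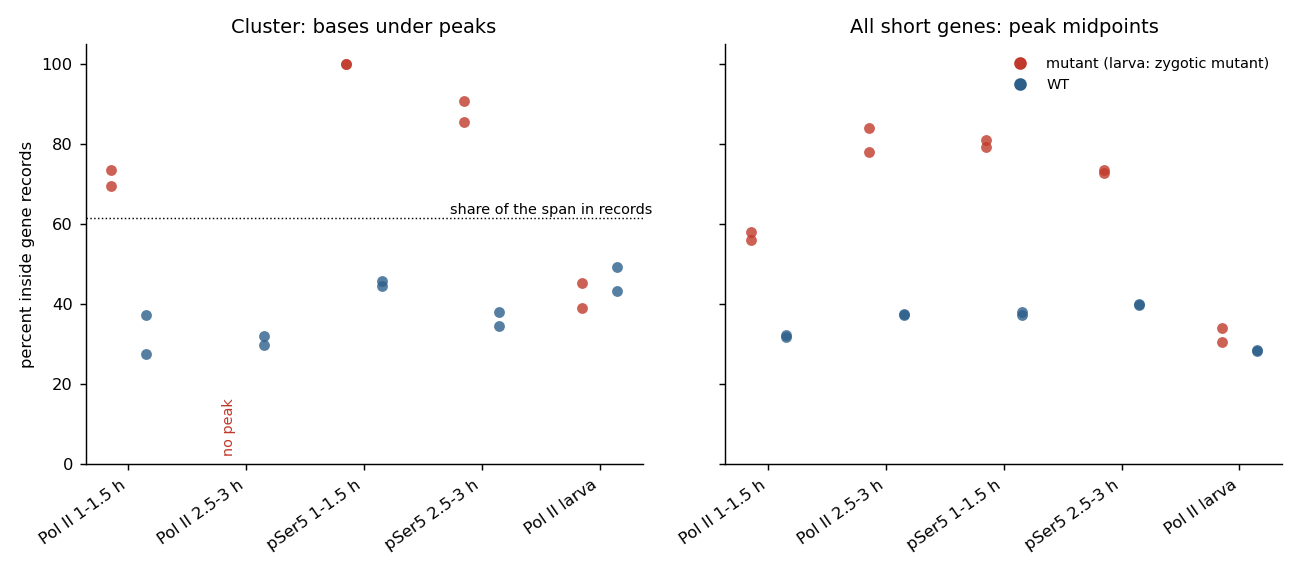
Percent inside gene records for Pol II and pSer5, per list, with the mutant in red left of WT in blue. The left panel gives bases under peaks in the cluster and the right panel the midpoints of peaks near all 6623 short protein-coding records. Mutant embryo lists lie at 69.5% or higher in the left panel and WT embryo lists at 45.9% or lower, while the larval genotypes overlap.

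Gene by gene, pSer5 at 2.5–3 h covered 60.3% and 65.2% of the Hsp26 record in the mutant, against 17.0% and 17.6% in WT. Hsp27 had 50.2% and 48.3% in the mutant, against 23.7% and 18.0% in WT, and Hsp67Bc had 42.1% and 51.8% in the mutant, against 0% and 0% in WT. In these 3 genes both mutant lists were above both WT lists. Hsp22 was the other way round, with 27.4% and 29.3% in the mutant, against 50.3% and 52.1% in WT, as was Hsp67Ba, with 0% and 0% in the mutant, against 4.85% and 5.37% in WT. Hsp23 had 77.3% and 69.6% in the mutant and 51.2% and 82.8% in WT, which overlap. At the earlier stage pSer5 was higher in the mutant at Hsp26 alone of these 6 records, with 39.9% and 40.7% in the mutant, against 26.4% and 29.4% in WT. Both mutant lists were then below both WT lists at Hsp67Bc, Hsp22, Hsp67Ba and Hsp23, and the lists overlapped at Hsp27. For neither stage was the share of all genes that separated in these ways computed. In the later lists, the 3850 bp held by both mutant lists and the 5925 bp held by both WT lists had 437 bp in common over the cluster. At Hsp67Bc and Hsp26 there were 0 bp in common, as in 19.7% of all genes with such bases in both genotypes. None of the 3850 bp fell under the 3378 bp of WT GAF of that stage.

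Hsp83 had no mutant Pol II at either stage but kept pSer5 in the middle of its record. Loss of Pol II with pSer5 counted as kept was not confined to Hsp83. In the cluster, Hsp67Bc and Hsp67Ba also lost Pol II at both stages. Hsp67Bc counted as keeping pSer5 at 2.5–3 h, but not at the WT place. Mutant pSer5 lay inside its record, where WT covered 0% and 0%, and the genotypes had 0 bp in common. Outside the members, Hsf, the heat shock factor, lost Pol II and kept pSer5 at both stages. At 2.5–3 h alone, Hsp26, Hsp23 and Hsp27 had the same 2 calls, as did Hsp68, Hsc70-4, DnaJ-1 and Gp93 outside the members. The share of all genes with both calls was not computed. In WT, Pol II lay at both ends of Hsp83. At 1–1.5 h peaks lay from −746 to 1610 bp and −728 to 1614 bp from the start of the record. Others lay from 3871 to 6575 bp and 4112 to 6631 bp, and ran over CG14966 and CG32276. Mutant lists had no Pol II, Zelda or GAF peak within 5 kb of the gene at either stage. WT GAF covered the start of the record, from −428 to 434 bp and −445 to 320 bp at 1–1.5 h, and WT Zelda lay over it and over CG32276.

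Most of the mutant pSer5 at Hsp83 lay in the space between the WT Pol II peaks. The peaks inside the record at 1–1.5 h lay from 1638 to 2145 bp and 2358 to 3593 bp in replicate 1, and from 1624 to 3646 bp in replicate 2. At 2.5–3 h the longest lay from 1443 to 3703 bp and from 1514 to 3718 bp. Short peaks lay elsewhere in single lists, from 6444 to 6844 bp in replicate 1 at 1–1.5 h, and at 2.5–3 h from 950 to 1219 bp in replicate 1 and from 4137 to 4565 bp and 6434 to 6691 bp in replicate 2. Of the 1744 bp held by both mutant pSer5 lists near the gene at 1–1.5 h, 0 bp fell under the 2590 bp of WT Pol II, and of 2190 bp at 2.5–3 h, 165 bp fell under 3066 bp. WT pSer5 was a single peak over the whole gene, 7423 and 7757 bp long at 1–1.5 h and 10755 and 10626 bp long at 2.5–3 h, so the mutant peaks inside the record lay within it. The record was covered to 42.6% and 49.5% in the mutant at 1–1.5 h and to 61.9% and 53.9% at 2.5–3 h, against 100% in each WT list.

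**Figure D3:**
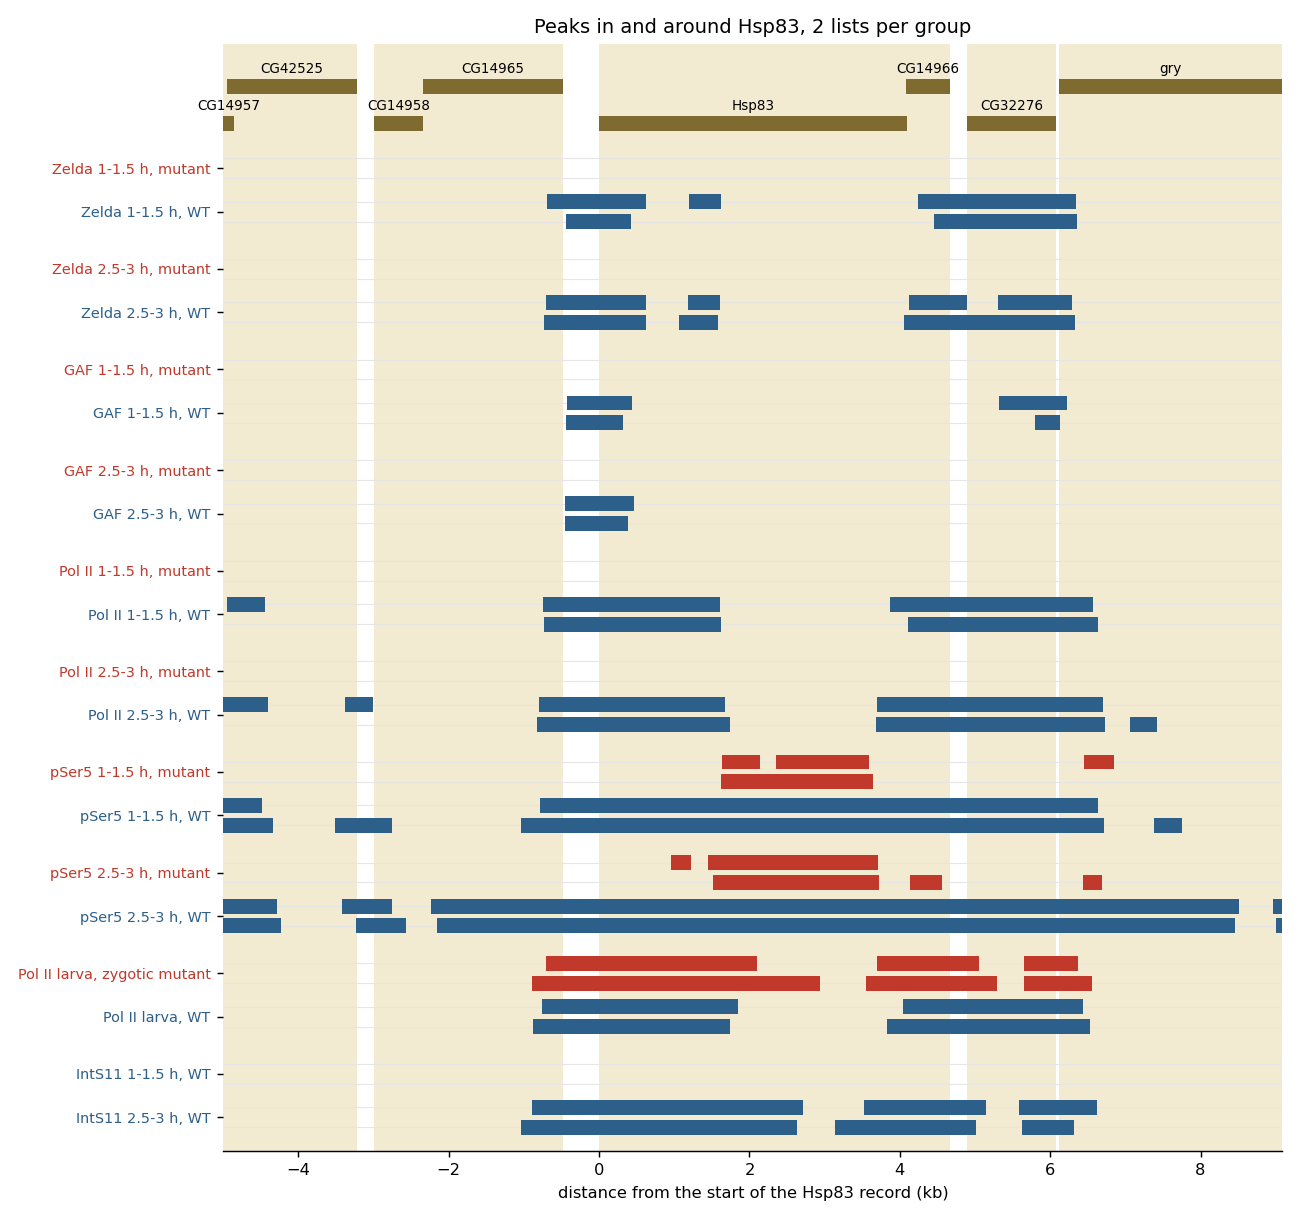
Peaks of each list (bars) against distance from the start of the Hsp83 record in kb, with mutant lists in red above WT lists in blue and gene records as brown boxes. The longest mutant pSer5 peaks lie inside the record between the pair of WT Pol II peaks, with short ones elsewhere in single lists. IntS11 is listed at 2.5–3 h and not at 1–1.5 h. Pol II of WT larvae lies mostly at the embryonic WT places, while that of ZygoticMutant larvae covers more of the record (60.8% and 85.0%).

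Averaged over the 4 strata of Pol II and pSer5 at both stages, all 7 members were lower in the mutant within 5 kb. Hsp83 had 0 and 0 bp of Pol II in the mutant, against 5572 and 4863 bp in WT, at 1–1.5 h. Its 2.5–3 h lists held 0 and 0 bp in the mutant, against 6445 and 5980 bp in WT. Its pSer5 covered 2145 and 2023 bp in the mutant, against 7933 and 9544 bp in WT, at 1–1.5 h. Of pSer5 at 2.5–3 h there were 2531 and 2892 bp in the mutant, against 12263 and 12143 bp in WT. No mutant list reached a WT list. Its difference of −6894 bp was the largest of the 7, and the smallest was −2629.38 bp at Hsp26. Each gave an adjusted p of 0.00277 (two-sided exact permutation of genotype within 4 strata, 8 lists each, Benjamini-Hochberg over all genes). Of all genes 64.2% were lower and 3.18% higher, and 7925 genes shared the smallest p. The median difference was −3299 bp over the members and −1582 bp over all genes. The call at Hsp26 depends on the window. Within 2 kb of the record its difference was 727.5 bp, higher in the mutant, and did not pass (exact permutation, adjusted p = 0.0905).

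**Figure D4:**
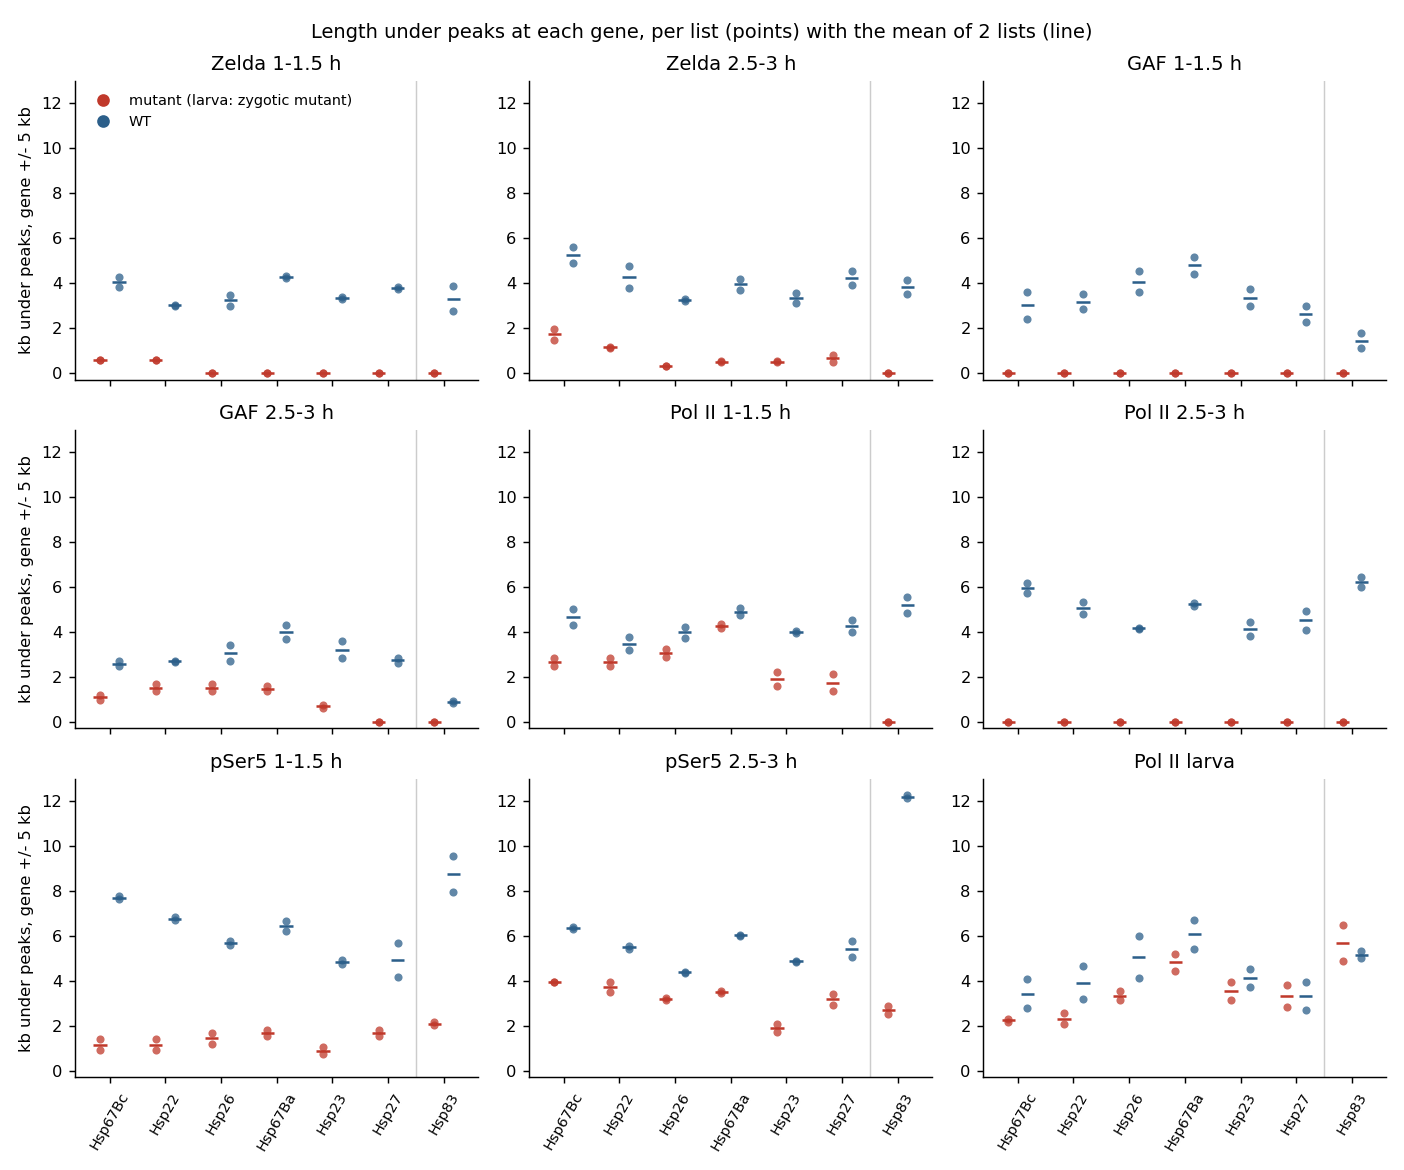
Length in kb under peaks within each gene and 5 kb either side, per list (points) with the mean of 2 lists (line), the mutant in red left of WT in blue, and a grey line between the cluster and Hsp83. In all 8 embryo panels the mutant points lie below the WT points at every gene, while the larval points of several genes overlap.

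Between stages, 1 of 7 members passed the test of WT surroundings, which averages over antibodies that can go in different directions. Hsp83 had 2135 bp more under peaks at 2.5–3 h than at 1–1.5 h on average over 5 antibodies (two-sided exact permutation of stage within antibody, 10 lists each, adjusted p = 0.0288). Of all genes 41.0% were higher and 0.548% lower. The call was lost in each of these alternatives: a 2 kb window, log2 lengths, exchange of labels only between lists of the same number, and leaving out replicate 2 of WT Zelda at 1–1.5 h (adjusted p from 0.0506 to 0.195). IntS11 had the widest stage difference at Hsp83. It was listed at 0 bp in both lists at 1–1.5 h and covered 6275 and 6235 bp at 2.5–3 h, including 80.2% and 87.6% of the record and all 3066 bp of WT Pol II near the gene. In the cluster, IntS11 at 2.5–3 h was bound only at Hsp23, with 487 bp held by both lists, across the start of the record. These 2 genes were gained at 2.5–3 h, where 30.1% of the genes without IntS11 at 1–1.5 h were. Hsp26, Hsp67Ba and Hsp27 had a peak in 1 of the 2 lists at 2.5–3 h, so the lists disagreed there. WT GAF at Hsp83 went down, with 914 and 843 bp at 2.5–3 h, against 1769 and 1095 bp at 1–1.5 h. At Hsp67Bc, WT GAF was lost between the stages, as at 5.08% of all genes bound at 1–1.5 h.

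In the mutant, no member passed the test between stages, and neither did any of the 14238 genes, 0.0% in either direction (exact permutation within 4 antibodies, smallest adjusted p = 0.147). At an unadjusted p under 0.05 there were 1153 genes and no member. Only 149 genes reached the smallest p of this design, too few for any to pass the adjustment. The antibodies went in different directions. Within 5 kb of Hsp67Bc, mutant Pol II covered 0 and 0 bp at 2.5–3 h, against 2495 and 2822 bp at 1–1.5 h. That early Pol II was the stretch from Hsp22 into Hsp26, with 0% of the Hsp67Bc record and 0% of the 500 bp either side covered. Mutant pSer5 in the same window covered 3932 and 3931 bp at 2.5–3 h, against 902 and 1419 bp at 1–1.5 h. Of the 4 members with mutant Pol II at 1–1.5 h all 4 had lost it at 2.5–3 h, where 75.5% of all such genes had. All 1429 bp of pSer5 held by both mutant lists in the cluster at 1–1.5 h were still held at 2.5–3 h, among 3850 bp.

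In larvae Pol II lay mostly at the same places in both genotypes. Pol II was lost at 0 of 7 bound members, with 2.63% lost over all bound genes, and kept at 6, with 88.2% kept over all. At Hsp67Bc 1 of the 2 ZygoticMutant lists had a peak. Over the cluster, 3599 bp were in common between the 4019 bp held by both ZygoticMutant lists and the 5116 bp held by both WT lists. Hsp83 had 4879 and 6486 bp in ZygoticMutant larvae and 4995 and 5325 bp in WT larvae, which overlap, but its record was covered to 60.8% and 85.0% in ZygoticMutant larvae, against 46.2% and 49.1% in WT larvae. At Hsp67Bc, Hsp22, Hsp26 and Hsp67Ba, both ZygoticMutant lists lay below both WT lists, with 2560 and 2059 bp, against 4644 and 3187 bp, at Hsp22, and 2165 and 2297 bp, against 4069 and 2776 bp, at Hsp67Bc. At Hsp23, Hsp27 and Hsp83 the lists overlapped. The share of all genes with lists separated in this way was not computed, and neighbouring genes of the cluster share peaks. With 2 lists against 2 the smallest exact p is 0.333, so no test was run on single genes. Set against WT embryos at 2.5–3 h, WT larvae kept 6 of the 6 members bound there, and lost 0, where 25.2% of all such genes were lost and 56.6% kept. A larval Pol II peak ran into Hsp26 itself, which was covered to 45.0% and 34.0% in ZygoticMutant larvae and to 63.2% and 100% in WT larvae.

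Of 23 other heat shock and chaperone genes, listed by function, most of those bound in WT also lost Zelda, GAF and Pol II in mutant embryos, as did most bound genes of the genome. Zelda was lost at 15 of 15 bound genes at 1–1.5 h and 14 of 15 at 2.5–3 h, with 95.7% and 83.2% lost over all bound genes. GAF was lost at 13 of 14 and 9 of 14, with 87.9% and 66.7% lost over all. Pol II was lost at 10 of 16 and kept at 5 at 1–1.5 h, with 83.0% lost and 12.0% kept over all. At 2.5–3 h it was lost at 16 of 16, with 96.0% lost over all. The 5 that kept Pol II were CG4456, which shares the Hsp22 record, Hsp68, the stress-induced Hsp70-family gene, Hsc70-4, its constitutive relative, DnaJ-1, an Hsp40-type co-chaperone, and Gp93, the Hsp90 of the endoplasmic reticulum. The pSer5 form was lost at 10 of 17 at 1–1.5 h and 11 of 18 at 2.5–3 h, with 77.1% and 65.5% lost over all. The same 5 genes and Hsf kept it at both stages, with 12.0% and 21.9% kept over all. CG4461, a small heat shock gene inside the cluster, had no Pol II peak in either WT list at 1–1.5 h and one in both mutant lists, a gain seen in 1.58% of genes without a WT peak. In larvae 17 of 18 kept Pol II, with 88.2% kept over all.

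By the length under peaks over the 20 groups, the genes elsewhere most like Hsp83 were PEK (Pearson r = 0.976), mRpL44 (0.974) and POLDIP2 (0.973), which lie beside one another on 3R and share peaks. Those most like Hsp26 were wuc (0.913), Vha100-2 (0.907) and Mst85C (0.900). The groups share antibodies, stages and list lengths, so these values only describe the patterns.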

How the data were processed

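The deposited files are 40 peak lists with chromosome, start and end and no header, on dm6. Per the submitters' processing notes, the tools include MACS2 2.2.7.1, deepTools 3.5.1 and SAMtools 1.18, with Bowtie2 2.2.5 and Trimmomatic 0.39. Their order, thresholds and control libraries, and whether peaks were called per sample or after pooling, are not given in the sources used here. Per the labels' protocols, chromatin was fixed with formaldehyde and ChIP was run in duplicate. The lists hold no counts, so depth, intervals and floors cannot be given, and a gene without a peak may still hold signal under the caller's limits.

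From the deposited positions were computed, with Python 3.11.15, NumPy 2.4.6 and pandas 2.3.3, the bp under peaks within each gene and 5 kb either side, and calls within 500 bp of either end of a record. Gene records came from a RefSeq table of Release 6 and were those of chromosomes 2L, 2R, 3L, 3R, 4, X and Y that code for proteins, microRNAs or snRNAs. Bases held by both lists of a group were intersected between groups within 500 bp of a record. Groups were read from the titles. Covered length was tested by two-sided exact permutation within strata over all 14238 genes, adjusted by Benjamini-Hochberg at 0.05, and the test was tested on simulated data. Alternatives were a 2 kb window, 250 bp or 5 kb call windows, an overlap of 100 bp, peaks of at least 500 bp, intervals up to 400 bp apart joined with those under 400 bp left out, log2(length + 100 bp), exchange of labels within replicate numbers, and leaving out each list. All members are named, with the 3 genes elsewhere most like Hsp83 and Hsp26. The rule for the members uses only gene names, but it and the gene lists were set up with earlier results of these data known. No sequences are printed, since none were at hand.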

Additional observations from a re-analysis of the deposited data

Results flagged for a closer look

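Several genes had a larger share of their record under peaks of 1 antibody in both mutant lists than in both WT lists at 1 stage and a smaller share at another. These differences between stages were not tested, and with 2 lists a group opposite directions can arise by chance. Only the members were examined for such opposite directions. The share of all genes showing them was not computed, so whether the members stand out in this is unknown. For Pol II at 1–1.5 h, the mean share was higher in the mutant by 41.3 percentage points at Hsp26 and by 39.5 at Hsp23. At 2.5–3 h the mutant minus WT difference was −9.31 points at Hsp26 and −36.8 at Hsp23, since no mutant peak was left. In larvae the difference of ZygoticMutant minus WT was −42.1 points at Hsp26.

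At Hsp83, Pol II went the other way, with mutant minus WT differences of −42.1 points at 1–1.5 h and −51.5 points at 2.5–3 h. In larvae the ZygoticMutant minus WT difference was 25.3 points. The larvae differ from the embryos in both stage and mutant genotype, which cannot be told apart. For pSer5 at Hsp67Bc the difference was −16.7 points at 1–1.5 h and 47.0 points at 2.5–3 h. For Zelda at Hsp23 it was −9.5 points at 1–1.5 h and 44.3 points at 2.5–3 h, where the mutant peak lay inside the record.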

How the results depend on the processing

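The lower Zelda and GAF coverage of the 7 members passed under every alternative run. So did that of Pol II and pSer5, except at Hsp26 within 2 kb, where the difference of mutant minus WT was 727.5 bp. The WT stage count of 1 became 0 with a 2 kb window, 0 on the log2 scale and 2 with joined intervals. It ranged from 0 to 2 with single lists left out, at 0 without replicate 2 of WT Zelda at 1–1.5 h. Replicate numbers did not pair the lists (deviations of same-numbered lists correlated from −0.249 to 0.174 over 9 comparisons). The replicate block gave 7, 7 and 0 members for the Zelda and GAF, Pol II and pSer5, and mutant stage tests, as without it, and 0 for the WT stage test. With the numbers crossed where that correlation was below −0.1, an alternative chosen after seeing the data, the WT stage count was 0 and the others run did not move.

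Counts of lost members moved most for pSer5 at 1–1.5 h, with 1 in the report, 3 with 250 bp call windows, 0 with 5 kb, 2 with a 100 bp overlap, 6 with peaks of at least 500 bp, 2 with joined intervals, and 1 to 2 with single lists left out (2 without replicate 2 of the mutant). With the 5 kb call window, which takes in peaks of neighbouring genes, 1 member lost Zelda at 2.5–3 h, 1 lost Pol II at 1–1.5 h and 0 lost pSer5 at 2.5–3 h. In larvae 1 was lost with 250 bp windows, 1 with a 100 bp overlap and 1 with peaks of at least 500 bp, and 0 to 1 with single lists left out (1 without replicate 1 of ZygoticMutant). The cause was not tested. The share of cluster bases in records, under alternatives added after seeing the data, was 70.1% for mutant Pol II at 1–1.5 h with peaks of at least 500 bp and 65.6% with joined intervals, against 32.6% and 35.4% in WT. Positions without heights limit all results to the presence and extent of peaks.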
